A study of Mus musculus with 4 samples.

Results

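MAP kinase phosphatases were followed in the RNA of satellite cells, the stem cells of skeletal muscle, in mice that carry a DEK-EGFP transgene or a YFP reporter. The 10 genes Dusp1, Dusp2, Dusp4, Dusp5, Dusp6, Dusp7, Dusp8, Dusp10, Dusp14 and Dusp16 were taken by their symbols from a table of 24328 rows. The YFP group (2 libraries) was Pax7CreERT2/+; ROSA26YFP/+ at 7 months of age, and the DEK group (2 libraries) was Pax7CreERT2/+; H11DEK-EGFP/+ at 4.5 months. Mice of both groups were perfused with PFA, a fixative, before the cells were sorted. Both groups carry the Cre recombinase driver at Pax7, a gene of satellite cells, so recombination depends on Pax7 activity. Age, reporter and insertion site differ with the group and cannot be told apart from the transgene. Replicates are not stated to be different mice, and p-values then reflect only the variation among these 4 libraries, which may be technical.

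MAP kinases (ERK, JNK and p38) carry signals from growth factors and stress to the nucleus, and are switched on when a threonine and a tyrosine in their activation loop are phosphorylated. Dual-specificity phosphatases remove both phosphates, and many of their genes are themselves induced by the kinases they shut off. In muscle stem cells, ERK and p38 signalling accompany the exit from quiescence.

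Column totals ran from 541183 to 545123 FPKM (fragments per kilobase of transcript, scaled to library size), and read depth is unknown because the table holds no counts. Dek itself gave 512 and 504 FPKM for YFP and 3196 and 1639.5 FPKM for DEK. Pax7 gave 106 and 93.9 FPKM for YFP and 119 and 184 FPKM for DEK, and all 13 satellite cell markers were above 1 FPKM in every library. The comparison used limma on log2(FPKM + 1) over the 12179 genes that reached 1 FPKM in 2 libraries or more, and a gene was called at a Benjamini-Hochberg adjusted p under 0.05. Of all tested genes, 557 were called higher and 391 lower in DEK. After quantile normalization the split was 479 and 507, and with the ribosomal RNA precursor Rn45s removed it was 418 and 565. Removing Rn45s took the median over all genes from 0.05 to -0.07 on the log2 scale.

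The promoter windows of the members that were called higher, or that hold the full cyclic AMP response element or a CArG box, are printed to show where the family differs in sequence. Each window runs from 250 bases before to 50 bases after the gene's start, 5′ to 3′ on the gene's strand, in RefSeq's build GRCm38.p6. Capitals mark the cyclic AMP response element TGACGTCA, bound by Creb and Atf factors, and the CArG box, bound by serum response factor.
Dusp1 (chr17:26508423-26508722, minus strand): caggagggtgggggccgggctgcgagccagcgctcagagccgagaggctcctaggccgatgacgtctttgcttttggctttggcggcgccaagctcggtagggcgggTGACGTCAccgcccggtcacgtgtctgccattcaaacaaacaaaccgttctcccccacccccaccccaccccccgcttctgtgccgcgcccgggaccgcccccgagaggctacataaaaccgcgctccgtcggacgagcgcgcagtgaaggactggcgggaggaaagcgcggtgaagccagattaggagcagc
Dusp2 (chr2:127335909-127336208, plus strand): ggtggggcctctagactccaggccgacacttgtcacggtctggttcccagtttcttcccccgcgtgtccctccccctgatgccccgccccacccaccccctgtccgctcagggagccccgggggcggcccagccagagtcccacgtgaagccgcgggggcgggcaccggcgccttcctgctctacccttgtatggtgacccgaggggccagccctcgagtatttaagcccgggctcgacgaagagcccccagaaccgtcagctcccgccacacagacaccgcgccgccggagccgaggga
Dusp5 (chr19:53528895-53529194, plus strand): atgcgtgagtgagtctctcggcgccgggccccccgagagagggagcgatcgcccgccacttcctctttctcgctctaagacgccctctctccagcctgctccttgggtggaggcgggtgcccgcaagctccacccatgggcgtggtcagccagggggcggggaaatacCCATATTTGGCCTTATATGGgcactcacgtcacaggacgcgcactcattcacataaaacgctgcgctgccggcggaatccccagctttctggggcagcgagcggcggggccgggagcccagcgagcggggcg
Dusp8 (chr7:142095235-142095534, minus strand): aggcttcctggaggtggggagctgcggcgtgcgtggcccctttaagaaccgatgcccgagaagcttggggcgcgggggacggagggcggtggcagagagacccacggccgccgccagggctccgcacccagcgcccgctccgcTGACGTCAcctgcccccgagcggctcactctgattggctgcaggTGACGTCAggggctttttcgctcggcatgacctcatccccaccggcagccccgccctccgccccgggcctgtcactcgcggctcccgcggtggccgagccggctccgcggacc
Dusp14 (chr11:84068308-84068607, minus strand): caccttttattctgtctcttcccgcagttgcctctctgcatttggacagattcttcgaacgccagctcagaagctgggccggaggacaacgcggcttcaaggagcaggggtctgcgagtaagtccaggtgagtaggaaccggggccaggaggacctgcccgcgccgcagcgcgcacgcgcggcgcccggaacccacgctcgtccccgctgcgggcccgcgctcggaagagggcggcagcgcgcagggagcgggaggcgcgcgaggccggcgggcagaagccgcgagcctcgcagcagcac

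Of the 10 members, 9 had a window in the RefSeq table, all but Dusp4. The full cyclic AMP response element TGACGTCA, a palindrome, was in the windows of Dusp1 (from 143 to 136 bases before the start) and Dusp8 (from 107 to 100 and from 63 to 56). It was in 1.79% of 32817 windows of the same length. Its shorter core TGACG, searched on both strands and also counted inside the full element, was in 5 of 9 member windows (Dusp1, Dusp2, Dusp5, Dusp8 and Dusp16) and in 20.8% of all windows. The CArG box was in Dusp5 alone among the members, from 82 to 73 and directly after it from 72 to 63 bases before the start, and in 1.63% of all windows. The E-box CACGTG, also a palindrome, was in Dusp1 and Dusp2 and in 7.15% of all windows. Neither the AP-1 site TGANTCA (7.81% of all windows) nor the TATA box TATAAA (13.6%) was in a member window on either strand. Apart from the core within the full element, no matches in the member windows overlapped. A match is a string of letters and not a measured binding site.

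Dusp2 and Dusp14 rose and Dusp4 fell in DEK, while Dusp1, the most abundant member, was higher in both DEK libraries without passing the test. All 10 members passed the filter on low values, and Dusp2 passed it only through its DEK libraries, so that it had to differ. Dusp4 would not have passed on its DEK libraries alone, nor Dusp5 on its YFP libraries alone. limma called 3 of 10 members, where it called 7.78% of all tested genes. Higher in DEK were 2, against 4.57% of tested genes, and lower was 1, against 3.21%. Groups did not overlap in 6 of 10 members, near the 60.9% of all tested genes, so that count is no result about the family. The median log2 fold change was 0.30 over the members and 0.05 over all tested genes.

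**Figure D1:**
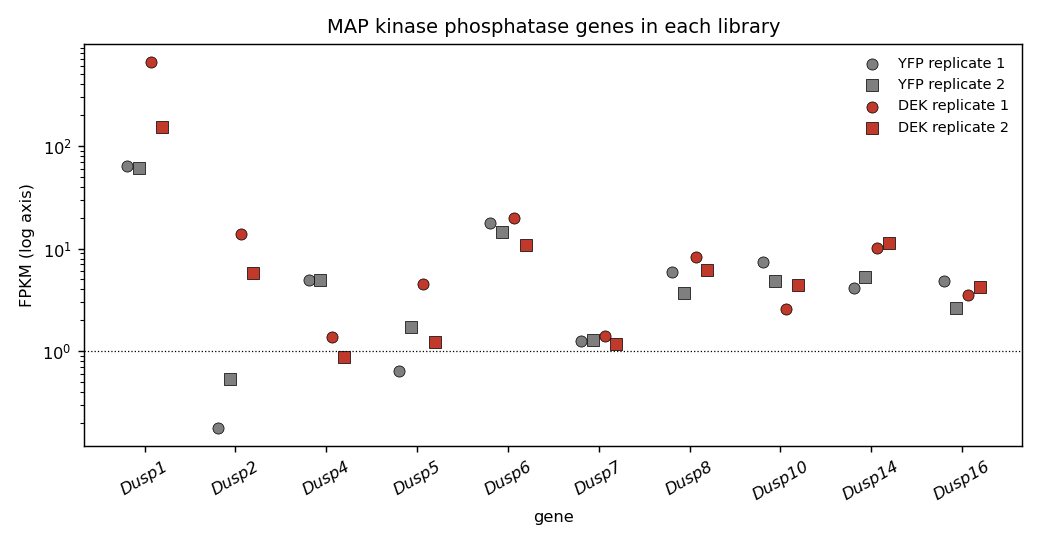
FPKM of the 10 genes (log axis) in each of the 4 libraries, grey for YFP and red for DEK, circles for replicate 1 and squares for replicate 2; the dotted line is 1 FPKM. Dusp1 stands above every other member in all 4 libraries, Dusp2 lies under 1 FPKM in both YFP libraries and at 5.76 FPKM or more in DEK, and Dusp4 moves the other way.

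Among the inducible nuclear phosphatases, Dusp1 is the best known immediate early member and acts on p38, JNK and ERK. Dusp1 stood at 64.1 and 61.2 FPKM in YFP replicates 1 and 2, against 652 and 152 FPKM for DEK replicates 1 and 2. Both DEK values lay above both YFP values, but the DEK libraries differed from each other by 4.29 times. The means were 62.6 ± 2.04 FPKM for YFP and 402 ± 353 FPKM for DEK (SD, n = 2 a group), 6.42 times higher. With that spread the log2 fold change of 2.31 (SE 0.62, 95% confidence interval 0.80 to 3.82) did not pass in limma (adjusted p = 0.0750). The gap between the DEK libraries was as large in 0.460% of tested genes, and that between the YFP libraries in 81.5%. Without DEK replicate 2 the log2 fold change was 3.36, and without DEK replicate 1 it was 1.27. With 1 DEK library left the fit takes its spread from the YFP libraries alone. Its p-value then does not measure the spread between the DEK libraries. In the GENCODE annotation an exon of Ergic1, on the other strand, overlaps an exon of Dusp1, and counting is not stated to use strand, so their reads cannot be told apart. Ergic1 gave 55.0 and 52.3 FPKM for YFP and 45.7 and 63.5 FPKM for DEK (0.01 on the log2 scale, SE 0.19, limma adjusted p = 0.986).

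Dusp2, a nuclear phosphatase known mainly from activated blood cells, was near the bottom of the range in YFP. For Dusp2 the YFP replicates 1 and 2 had 0.180 and 0.536 FPKM, and the DEK replicates 1 and 2 had 14.0 and 5.76 FPKM. The groups were far apart, with the higher DEK value again in replicate 1. Means were 0.358 ± 0.252 FPKM for YFP and 9.89 ± 5.84 FPKM for DEK (SD, n = 2 a group), and Dusp2 rose by a log2 fold change of 2.90 (SE 0.40, limma adjusted p = 0.0170). The size depends on the added 1 FPKM, being 4.43 with an added 0.1 and 1.42 with an added 5. Summed markers of blood cells were also higher in the DEK libraries. Other leukocyte markers (16 genes) summed to 7.26 and 71.5 FPKM for YFP and 209.5 and 303 FPKM for DEK, with 1 of 5 tested genes called higher. The pan-leukocyte gene Ptprc gave 0.0105 and 0.474 FPKM for YFP against 1.302 and 1.53 FPKM for DEK. The T cell genes, which were under the filter and not tested, did not all have the same pattern. Cd3e was at 0 in YFP and had 0.934 and 1.02 FPKM in the DEK libraries, and Cd4 and Cd8a were at 0 in YFP and under 1 FPKM in DEK. Cd3g (0.427 and 0.391 FPKM for YFP, 0.762 and 0.369 FPKM for DEK) and Cd3d (0.0835 and 0.428 FPKM for YFP, 0.257 and 0.526 FPKM for DEK) overlapped between the groups. Macrophage and monocyte markers (13 genes) summed to 3.77 and 19.9 FPKM for YFP and 108 and 127 FPKM for DEK, with Adgre1, C1qa, C1qb, C1qc and Lyz1 listed at 0 in both YFP libraries. Of 8 tested macrophage and monocyte genes 5 were called higher, and all 5 passed the low filter only through DEK, so this count was set by the filter. A few genes made up most of both sums in DEK replicates 1 and 2. These were S100a8 (39.7 and 90.7 FPKM), S100a9 (52.1 and 126 FPKM), Cd74 (106 and 76.5 FPKM) and Lyz2 (73.4 and 100 FPKM). Of these limma called Cd74 alone, which was at 0.701 FPKM in YFP replicate 1 and needed a DEK library to pass the low filter. Both sums were higher in DEK replicate 2, where Dusp2 was the lower, and S100a8, S100a9 and Lyz2 were higher there. Single genes of these lists went both ways. Cd74 and Lyz1 were higher in DEK replicate 1, and C1qa and Ptprc in DEK replicate 2. The order of the sums thus rests on a few genes. The part of blood cells in the rise of Dusp2 was not tested. In bulk RNA, more cells of a type and more RNA per cell cannot be told apart.

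Dusp4, a nuclear phosphatase for ERK and JNK, was the member that fell. YFP replicates 1 and 2 gave 4.98 and 4.96 FPKM for Dusp4, and DEK replicates 1 and 2 gave 1.39 and 0.882 FPKM. Both DEK values lay under both YFP values, and the YFP libraries were nearly equal. Means were 4.97 ± 0.0175 FPKM for YFP and 1.14 ± 0.359 FPKM for DEK (SD, n = 2 a group), with a log2 fold change of -1.49 (SE 0.22, limma adjusted p = 0.0199). It was -2.07 with an added 0.1 FPKM and -0.70 with an added 5. Dusp5 is a nuclear phosphatase for ERK, and its window holds the adjacent CArG boxes printed above. Dusp5 stood at 0.637 and 1.71 FPKM in YFP replicates 1 and 2, against 4.56 and 1.23 FPKM for DEK replicates 1 and 2. The groups overlapped, because DEK replicate 1 alone lay above the rest, and the log2 fold change of 0.74 (SE 0.48) did not pass (limma adjusted p = 0.347). The antisense gene AC137853.2 overlaps an exon of Dusp5 and was not analysed here.

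The cytoplasmic phosphatases Dusp6 and Dusp7 act on ERK, and Dusp6 is a common readout of ERK activity; neither was called. For Dusp6 the YFP replicates 1 and 2 had 17.7 and 14.6 FPKM, and the DEK replicates 1 and 2 had 19.7 and 10.8 FPKM. The DEK libraries lay on either side of the YFP libraries (log2 fold change -0.13, 95% confidence interval -0.83 to 0.58, limma adjusted p = 0.798). YFP replicates 1 and 2 gave 1.25 and 1.28 FPKM for Dusp7, and DEK replicates 1 and 2 gave 1.42 and 1.18 FPKM. These groups overlapped too (log2 fold change 0.02, 95% confidence interval -0.49 to 0.53, limma adjusted p = 0.953), and the sign turned negative under TMM, quantile and Rn45s-free scaling.

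Dusp8, Dusp10 and Dusp16 prefer JNK and p38, and none was called. Dusp8 stood at 5.93 and 3.67 FPKM in YFP replicates 1 and 2, against 8.19 and 6.20 FPKM for DEK replicates 1 and 2. Both DEK values lay above both YFP values, by a small margin (log2 fold change 0.52, 95% confidence interval -0.12 to 1.16, limma adjusted p = 0.247). Its window holds the full cyclic AMP response element at 2 places, and the lncRNA gene Gm32786, which overlaps an exon on the other strand, was not analysed here. For Dusp10 the YFP replicates 1 and 2 had 7.37 and 4.85 FPKM, and the DEK replicates 1 and 2 had 2.58 and 4.41 FPKM. Here both DEK values were the lower ones (log2 fold change -0.67, 95% confidence interval -1.38 to 0.04, limma adjusted p = 0.192). YFP replicates 1 and 2 gave 4.87 and 2.61 FPKM for Dusp16, and DEK replicates 1 and 2 gave 3.54 and 4.18 FPKM. Both DEK values lay between the YFP values (log2 fold change 0.07, 95% confidence interval -0.61 to 0.76, limma adjusted p = 0.882), and the sign turned to -0.03 with Rn45s removed.

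Dusp14 is an atypical member that lacks the kinase-binding domain of the others. Dusp14 stood at 4.17 and 5.23 FPKM in YFP replicates 1 and 2, against 10.1 and 11.3 FPKM for DEK replicates 1 and 2. The DEK libraries lay close together, and both were above YFP. Means were 4.70 ± 0.749 FPKM for YFP and 10.7 ± 0.885 FPKM for DEK (SD, n = 2 a group), a 2.27-fold rise (log2 fold change 1.04, SE 0.19, limma adjusted p = 0.0356). A gap between the DEK libraries as large as that of Dusp14 was found in 59.1% of tested genes, and one as large as that of Dusp2 in 2.16%.

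**Figure D2:**
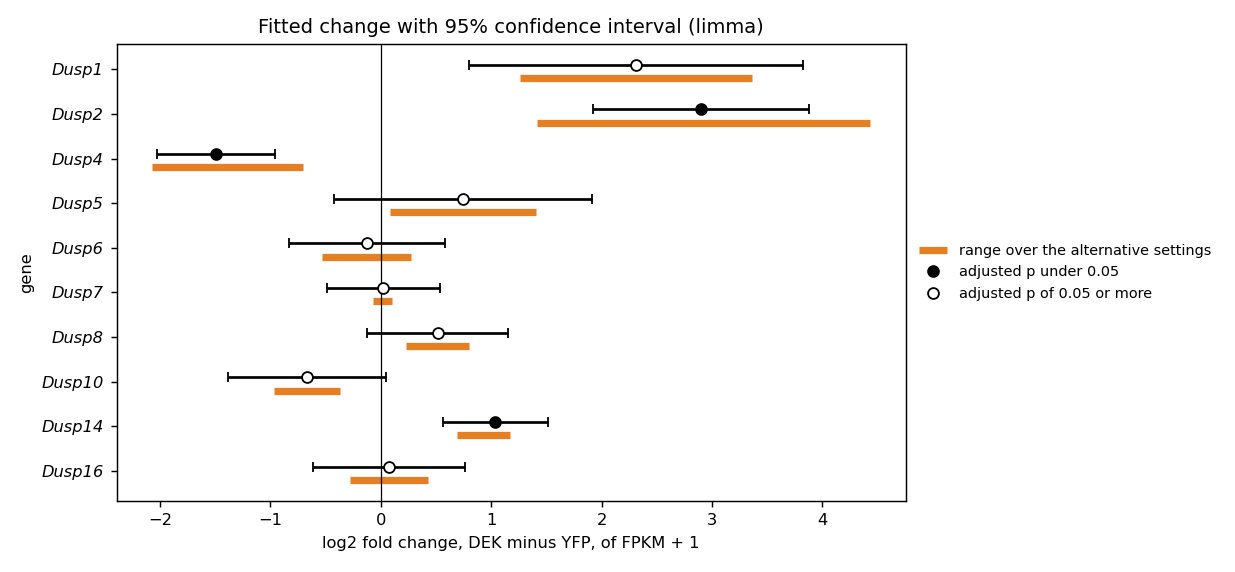
Log2 fold change of each member (DEK minus YFP, on FPKM + 1) with its 95% confidence interval from limma, filled where the adjusted p was under 0.05; the orange bar is the range over the alternative settings. Dusp2 (2.90), Dusp14 (1.04) and Dusp4 (-1.49) are filled, and the orange bars of Dusp6, Dusp7 and Dusp16 cross 0.

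The calls of Dusp2, Dusp4 and Dusp14 were all lost in limma without YFP replicate 1, without YFP replicate 2, without DEK replicate 1 and with no low filter. With no low filter 4 of 10 members had an unadjusted p under 0.05, where 4224 of all 18329 tested genes did. Without DEK replicate 2, Dusp2 was called and Dusp4 and Dusp14 were not. The signs of these 3 held in each of the 15, 16 and 17 alternative settings that tested them. Their groups did not overlap, so leaving out a library or changing the added value or filter could not turn a sign. The held signs are therefore no added support.

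The DEK libraries differed in how far the members moved. Against the YFP mean, Dusp1 was 3.36 higher on the log2 scale in DEK replicate 1 and 1.27 higher in DEK replicate 2. For Dusp2 these differences were 3.48 and 2.33, and for Dusp5 they were 1.40 and 0.08. DEK replicate 1 was the higher library for all 3 of these genes. It was also the higher for Dusp4, Dusp6, Dusp7 and Dusp8, and the lower for Dusp10, Dusp14 and Dusp16. For Dusp14 the differences were 0.96 and 1.12, and for Dusp4 they were -1.32 and -1.67, each farther from YFP in DEK replicate 2. Genes that switch on in stressed or digested tissue, a list of 29 dissociation and heat shock response genes, had a median of 4.35 in DEK replicate 1 and 1.77 in DEK replicate 2, against 0.01 and 0.09 for all tested genes. Their levels summed to 1619 and 1474 FPKM for YFP and 23728 and 5592 FPKM for DEK, and limma called 12 of 29 higher and 0 lower (23 were higher and 0 lower at an unadjusted p under 0.05; 1 of the called genes was tested only through DEK). Over all tested genes limma called 4.57% higher, and at an unadjusted p under 0.05 2057 of 12179 were higher and 1488 lower. The part of the dissociation and heat shock response in the levels of Dusp1, Dusp2 and Dusp5 was not tested.

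**Figure D3:**
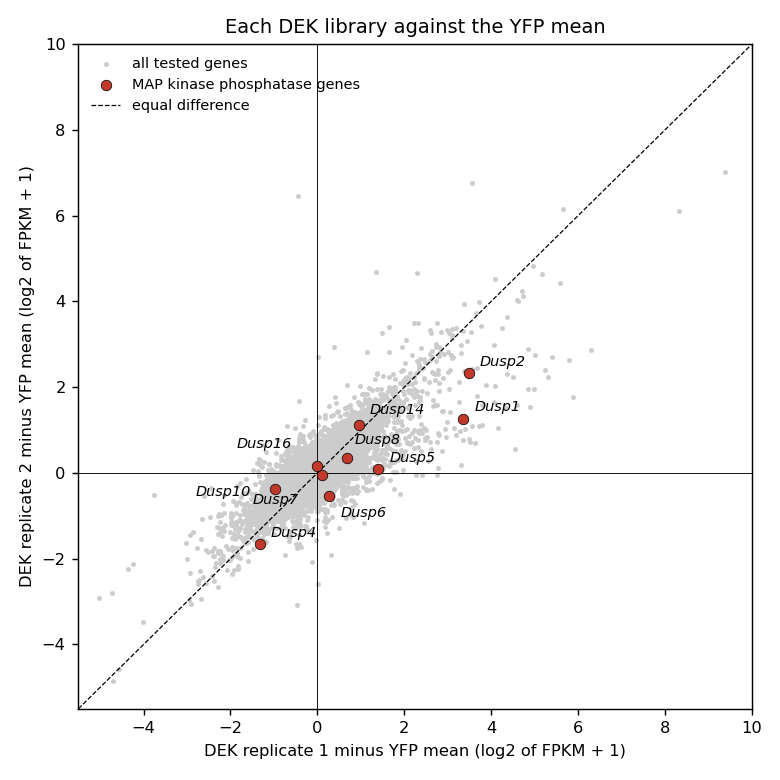
Difference from the YFP mean in DEK replicate 1 (horizontal) and DEK replicate 2 (vertical), both in log2 of FPKM + 1, for all 12179 tested genes (grey) and the 10 members (red); the dashed line marks an equal difference in both libraries. Dusp1, Dusp2, Dusp4, Dusp5, Dusp6, Dusp7 and Dusp8 lie under the line and Dusp10, Dusp14 and Dusp16 above it. Dusp7, Dusp14 and Dusp16 lie close to it.

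The order of levels within the family, on the length-scaled FPKM, also differed between the groups. In YFP, Dusp1 (62.6 FPKM on average) led, followed by Dusp6 (16.2), and the libraries of each were apart from those of the next gene. Dusp10 (6.11), Dusp4, Dusp8, Dusp14 and Dusp16 (3.74) followed, where the libraries of each neighbouring pair overlapped. Dusp7 (1.26) and Dusp5 (1.17) overlapped with each other, and Dusp2 (0.358) was last and apart. In DEK, Dusp1 (402) was again apart from the rest. Dusp6 (15.3), Dusp14 (10.7), Dusp2 (9.89) and Dusp8 (7.20) came next, each overlapping with its neighbour. Dusp16 (3.86) was apart from Dusp8, and from there on Dusp10, Dusp5, Dusp7 and Dusp4 (1.14) overlapped in turn. Dusp2 thus stood last of 10 in YFP and at rank 4 in DEK, and Dusp4 at rank 4 in YFP and last in DEK. Dusp1 made up 57.6% and 60.8% of the members' summed FPKM in the YFP libraries, against 90.9% and 76.8% in the DEK libraries. The other 9 members summed to 47.1 and 39.5 FPKM for YFP and 65.5 and 45.9 FPKM for DEK, and here the groups overlapped.

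For each called member, the 3 tested genes with the most similar values were taken by the Euclidean distance of log2 levels, relative to the YFP mean, over the 4 libraries. With so few libraries this is only a description. Closest to Dusp2 were the lysozyme gene Lyz1 (distance 0.30), the beta globin gene Hbb-bs (0.38) and the immediate early factor Egr1 (0.41). For Lyz1 the YFP libraries were both listed at 0, and it gave 9.29 and 4.19 FPKM for DEK. Lyz1 and Hbb-bs have close copies whose reads may be shared, so their levels are uncertain. Egr1 gave 172 and 161 FPKM for YFP and 2129.6 and 916 FPKM for DEK. Closest to Dusp4 were Rgcc (0.09), the cytokine signalling inhibitor Socs2 (0.10) and the cell cycle factor Foxm1 (0.15). Socs2 gave 56.7 and 56.4 FPKM for YFP and 21.0 and 18.1 FPKM for DEK. Closest to Dusp14 were Ankrd33b (0.08), the RNA polymerase subunit gene Polr3g (0.11) and Aifm2 (0.12). Lyz1, Hbb-bs and Ankrd33b passed the low filter only through DEK and Foxm1 only through YFP. The direction of their difference was thus set by the filter.

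Other phosphatase genes were called about as often as the 7.78% of all tested genes, with 1 of 12 and 1 of 11 in the lists that were tested. For the unadjusted counts below, 2057 of all 12179 tested genes were higher and 1488 lower at an unadjusted p under 0.05 in limma. Dusp9, a classical member, and its inactive relative Styxl1 stayed under 1 FPKM in all libraries and were not tested. Of 18 other atypical dual-specificity phosphatase genes 12 were tested; limma called 0 higher and 1 lower (0 were higher and 1 lower at an unadjusted p under 0.05). The gene that fell was Dusp11, an RNA phosphatase, which gave 40.1 and 43.7 FPKM for YFP and 23.0 and 22.9 FPKM for DEK (-0.84 on the log2 scale, SE 0.14, limma adjusted p = 0.0280). Among phosphatases of other families that act on MAP kinases, limma called 1 of 11 tested genes lower and 0 higher (0 were higher and 3 lower at an unadjusted p under 0.05). This was Ppp2r2d, a regulatory subunit of protein phosphatase 2A, with 9.69 and 7.66 FPKM for YFP and 3.84 and 3.42 FPKM for DEK (-1.06 on the log2 scale, SE 0.20, limma adjusted p = 0.0374). Of 14 tested Sprouty, Spred and Ras GTPase-activating protein genes, which restrain Ras upstream of ERK, limma called 0 (1 were higher and 4 lower at an unadjusted p under 0.05). Spry1, which helps keep satellite cells quiescent, gave 69.2 and 56.4 FPKM for YFP and 94.8 and 96.3 FPKM for DEK (0.60 on the log2 scale, SE 0.15, limma adjusted p = 0.0667).

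No kinase gene that the phosphatases act on was called. Of 14 MAP kinase genes 10 were tested and limma called 0 (of these 0 were higher and 1 lower at an unadjusted p under 0.05). The p38 gene Mapk14 gave 34.8 and 34.8 FPKM for YFP and 20.7 and 28.9 FPKM for DEK (-0.49 on the log2 scale, SE 0.19, limma adjusted p = 0.158). Of 7 MAP kinase kinase genes limma called 0 (0 were higher and 1 lower at an unadjusted p under 0.05). Among Ras, Raf and MAP kinase kinase kinase genes 3 of 22 tested genes fell and 0 rose. Over all tested genes, to which the counts below also compare, limma called 3.21% lower and 4.57% higher. At an unadjusted p under 0.05, 1488 of all 12179 tested genes were lower and 2057 higher. Map3k6 gave 62.7 and 55.7 FPKM for YFP and 21.9 and 19.6 FPKM for DEK (-1.47 on the log2 scale, SE 0.15, limma adjusted p = 0.00768). Map3k3 (-0.97) and the stress-responsive Map3k5 (-0.80) fell by smaller log2 fold changes (limma adjusted p = 0.0323 and 0.0443). Of 14 tested scaffold genes, which hold the kinases together, 1 rose and 0 fell. The gene was Ksr2, with 0.455 and 1.79 FPKM for YFP and 12.7 and 8.94 FPKM for DEK (2.54 on the log2 scale, SE 0.36, limma adjusted p = 0.0180). YFP replicate 1 was under 1 FPKM, so Ksr2 needed a DEK library to pass the low filter. Of 10 tested kinase genes downstream of MAP kinases 1 fell and 0 rose, the translation kinase gene Mknk2, with 37.2 and 39.4 FPKM for YFP and 20.7 and 24.2 FPKM for DEK (-0.75 on the log2 scale, SE 0.15, limma adjusted p = 0.0423).

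Genes that report on ERK output moved in both directions. Of 22 tested, limma called 4 higher and 1 lower, against 4.57% and 3.21% of all tested genes. Their median log2 fold change was 0.86 against 0.05 for all genes. Those that rose were Fosb, Egr1, Ier3 and Epha4, of which all but Epha4 are also in the dissociation list, and Klf6 fell. Epha4 was at 0.707 FPKM in YFP replicate 2 and needed a DEK library to pass the low filter. Fosb, a subunit of AP-1, gave 4.25 and 2.57 FPKM for YFP and 87.5 and 52.7 FPKM for DEK (3.99 on the log2 scale, SE 0.30, limma adjusted p = 0.00386). Klf6 gave 209 and 181 FPKM for YFP and 111 and 96.4 FPKM for DEK (-0.90 on the log2 scale, SE 0.15, limma adjusted p = 0.0278). The ETS factor genes Etv4 and Etv5, which like Dusp6 are transcribed under ERK signalling, were chosen after their values were seen. Etv4 gave 5.08 and 4.54 FPKM for YFP and 0.803 and 2.25 FPKM for DEK (limma adjusted p = 0.0657), and Etv5 gave 34.3 and 31.1 FPKM for YFP and 20.9 and 29.3 FPKM for DEK (limma adjusted p = 0.251). Neither was called. Of 25 tested genes of factors that bind cyclic AMP response elements, serum response elements and AP-1 sites, Fosb and Jun rose and 0 fell. Jun, also in the dissociation list, gave 114 and 87.1 FPKM for YFP and 1707 and 408 FPKM for DEK (3.05 on the log2 scale, SE 0.62, limma adjusted p = 0.0418), and its DEK libraries differed like those of Dusp1, with replicate 1 the higher.

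**Figure D4:**
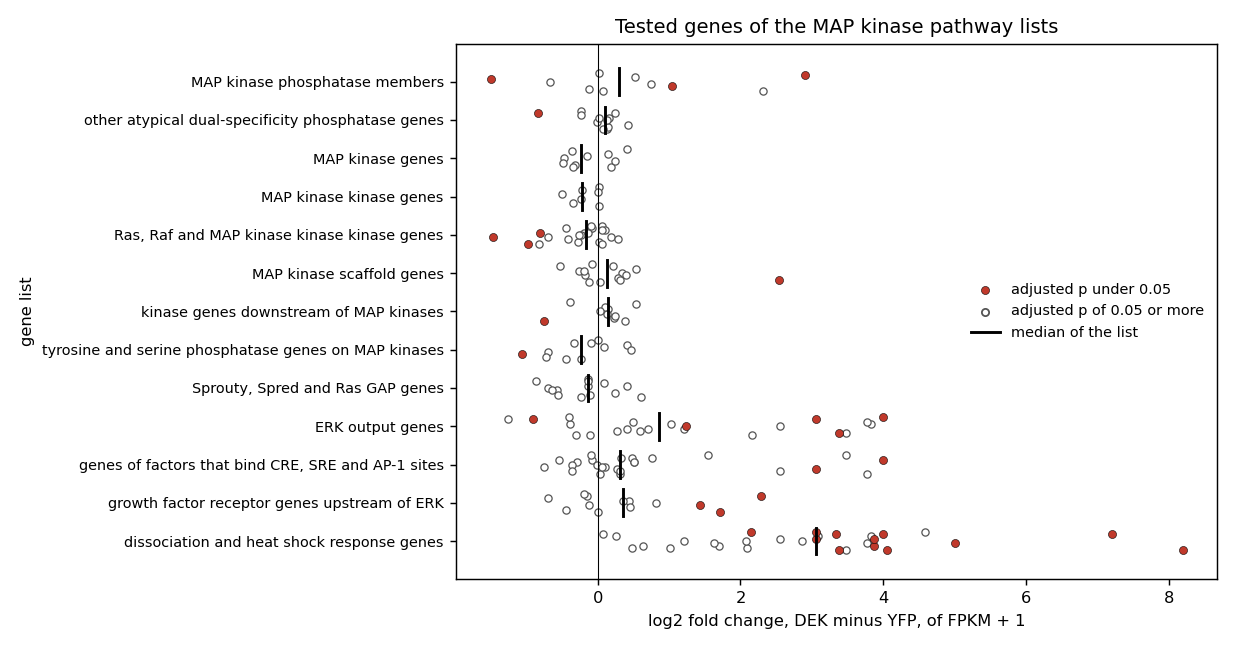
Log2 fold change (DEK minus YFP, on FPKM + 1) of the tested genes in each list, 1 row a list, red where the limma adjusted p was under 0.05, with the list's median as a bar; some genes are in 2 lists. The MAP kinase phosphatase genes spread from -1.49 to 2.90, while the tested MAP kinase genes lie between -0.49 and 0.42.

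Of 13 tested growth factor receptor genes upstream of ERK 3 were called higher and 0 lower in limma. Over all tested genes these shares were 4.57% and 3.21%. All 3 called genes were under 1 FPKM in both YFP libraries and passed the low filter only through DEK, so the direction of these calls was set by the filter. Flt1 and Kdr, receptors of endothelial cells, were listed at 0 in both YFP libraries, and DEK gave 3.79 and 3.99 FPKM for Flt1 and 2.37 and 2.19 FPKM for Kdr. Ntrk2, a neurotrophin receptor, gave 0.257 and 0 FPKM for YFP and 1.84 and 2.23 FPKM for DEK (1.44 on the log2 scale, SE 0.23, limma adjusted p = 0.0267). Endothelial markers (18 genes) summed to 81.5 and 77.4 FPKM for YFP and 353 and 287 FPKM for DEK, with 13 of 16 tested genes called higher, 0 lower (11 of the called genes passed the low filter only through DEK, so the count is largely set by the filter), and Erg, Flt1, Kdr, Ptprb and Robo4 listed at 0 in both YFP libraries. Sums were also higher in both DEK libraries for myofibre (97.0 and 84.7 FPKM for YFP, 266 and 198 FPKM for DEK; 1 of 6 tested genes higher and 0 lower), erythroid (8.04 and 0.527 FPKM for YFP, 39.4 and 357 FPKM for DEK; 2 of 5 tested genes higher and 0 lower, 2 of the higher genes tested only through DEK) and Schwann cell markers (289 and 250.01 FPKM for YFP, 318 and 358 FPKM for DEK; 2 of 4 tested genes higher and 0 lower). Sums overlapped between the groups for satellite cell (3457 and 3255 FPKM for YFP, 3197 and 3702 FPKM for DEK; 1 of 13 tested genes higher and 0 lower), fibro-adipogenic progenitor (1667 and 1338 FPKM for YFP, 1491 and 1689 FPKM for DEK; 6 of 11 tested genes higher and 2 lower, 3 of the higher genes tested only through DEK) and pericyte and smooth muscle markers (982 and 993 FPKM for YFP, 786 and 1162 FPKM for DEK; 2 of 10 tested genes higher and 0 lower, 1 of the higher genes tested only through DEK). Much of the myofibre rise was in Actn3, with 30.1 and 27.4 FPKM for YFP and 148 and 158 FPKM for DEK. Acta1 went the other way, with 47.4 and 39.5 FPKM for YFP and 32.0 and 13.1 FPKM for DEK. Of the 6 tested myofibre genes 4 had a positive and 2 a negative log2 fold change. The part of any of these cell types in the members' levels was not tested.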

How the data were processed

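Polyadenylated RNA of sorted, fixed satellite cells was measured in 4 libraries, grouped by their titles. STAR 2.5.3a, StringTie 1.3.3, R 3.4.1 and build mm9 are named in the submitters' processing notes; settings and annotation are not given in the sources used here. The deposited values, 1 per symbol and library, were read as FPKM made by the authors. The file names no unit, so FPKM is inferred, and TPM is possible. On log2(FPKM + 1), changes of low genes are understated.

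Genes at 1 FPKM in 2 or more libraries were fitted with limma 3.58.1 in R 4.3.3 (variance trend, no covariates, two-sided, Benjamini-Hochberg over all tested genes). The fit was run on simulated data in which each gene had a typical spread for its level. This cannot show how limma treats genes with an unusual spread, such as Dusp1. With 2 libraries a group an exact permutation test cannot go below p = 0.333. Members and lists were chosen with earlier results of these data known. Named genes were the members, Dek, up to 4 called genes of a pathway list with the smallest p or else its 2 most abundant, the 2 most abundant of each marker list, and the 3 genes nearest each called member. Not all are described, some are not reported here, and Epha4, Etv4, Etv5, genes listed at 0, Cd3d, Cd3g, Ptprc, Pax7 and Ergic1 are named outside that rule. Promoters came from RefSeq, matched by symbol, and no coordinates were converted. TMM factors were computed directly on FPKM. Of the alternatives 13 were planned and 4 added after seeing the data.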

Additional observations from a re-analysis of the deposited data

How the results depend on the processing

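limma called 3 members with all libraries and 0 with no low filter. Of the 5 members that reached 5 FPKM in 2 libraries it called 2, Dusp2 and Dusp14, where it called 771 of all 8877 tested genes. Dusp2 reached 5 FPKM only in DEK. Over all genes it called 948, 618 with the replicate block, 293 with no low filter and, on the same genes with 1 library left out, 0 (without DEK replicate 1, with 4 members at an unadjusted p under 0.05) to 184. Refiltered on the 3 libraries left, a setting chosen after seeing the data, it called 168 and 83 genes without YFP replicates 1 and 2 and 302 and 780 without DEK replicates 1 and 2, and 0, 0, 1 and 1 members; the member was Dusp1. Deviations of same-numbered libraries were hardly correlated (Pearson r 0.0635, Spearman rho 0.0550 over 12179 genes, which are not independent replicates). With 2 libraries a group this cannot show whether replicate numbers pair the libraries. The replicate block changed no member's call, but Dusp14 then stood at the edge of the threshold (limma adjusted p = 0.0496, and 0.0498 with Rn45s removed). Signs turned in 3 members that were not called. With a library left out the log2 fold change ran from -0.534 to 0.278 for Dusp6 (positive at 0.000909 without YFP replicate 1 and 0.278 without DEK replicate 2), -0.0523 to 0.0986 for Dusp7 and -0.276 to 0.425 for Dusp16 (-0.0209 without DEK replicate 2). For Dusp7 it was -0.00634 with TMM factors, -0.0738 after quantile normalization and -0.0569 with Rn45s removed, and for Dusp16 -0.0349 with Rn45s removed. The cause was not tested. Over the alternatives that tested them, limma adjusted p ran from 0.000138 to 0.272 for Dusp1, 0.0144 to 0.109 for Dusp2, 0.0163 to 0.117 for Dusp4 and 0.0315 to 0.196 for Dusp14. Where 1 library of a group remained, it was assumed to vary like the other group. Read depth is unknown.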
